A study of Mus musculus with 3 samples.

Results

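The DNA replication genes are 44 genes that code for the proteins that mark replication origins, unwind DNA, copy it and supply its nucleotides. They were taken as a fixed list of names, from Orc1 to Rrm2, and each was found on the array by the transcript accession of its probe. All 44 were measured, by 50 of the 27234 named probes, among 20577 named genes. RNA from 3 kinds of female mouse cells was hybridised to 1 one-colour array per kind, and each RNA was a pool of 5 samples. MF were primary fibroblasts from spleens remodelled with SiO2, given LV-NC, and served as the study's control. iHep were the same kind of fibroblasts given LV-3TF, whose factors the labels do not name, and both were collected 14 days after transduction. PH were freshly isolated hepatocytes, which the study used as its positive control. Strain and age are not given in the sources used here.

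A cell copies its genome once per division, in S phase. The origin recognition complex, with Cdc6 and Cdt1, loads the ring of Mcm2 to Mcm7 on DNA before S phase, and Cdc45 and the GINS proteins turn that ring into a working helicase. Primase and polymerase alpha start each strand, polymerases delta and epsilon extend it on the sliding clamp Pcna, and Fen1 and Lig1 join the fragments of the lagging strand. Many of these genes are transcribed by E2F factors when cells leave quiescence. Adult hepatocytes in an undisturbed liver are mostly quiescent, whereas cultured fibroblasts divide until contact, differentiation or senescence stops them. The comparison of the 3 arrays asks how much of this set was carried by fibroblasts after conversion, set against unconverted fibroblasts and hepatocytes.

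A level is the log2 of a signal over the 75th percentile of its array, so that level 0 is that percentile. Levels can be compared between arrays for a gene but not between genes. A summed level of marker genes, given below, is weighted to the brightest probes and is compared between arrays only. The percentile was a signal of 544.3 on MF, 3751.5 on iHep and 2080.9 on PH. Every member's probe was well above background on all 3 arrays. With 1 array per group there is no test and no error between samples. A log2 difference between single spots had a technical SD of 0.121 to 0.134, from probes printed many times. Differences read by separate probes of one gene spread more, with an SD of 0.84 where iHep was set against MF, 1.11 for PH against MF and 1.09 for iHep against PH. MF was read in a scan of its own and the other arrays in a common one, so whatever sets MF apart, scan or cells, cannot be told apart. "Higher" and "lower" describe these arrays at a 2-fold threshold. In such bulk RNA fewer cells in S phase and less RNA per cell cannot be told apart.

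The fibroblast markers fixed for a check of the labels were above background for 10 of 10 genes on MF, with a summed level of 612 times the 75th percentile, and the hepatocyte markers for 10 of 10 on PH, with a summed level of 660. Fibroblast markers were also above background for 9 of 10 genes on iHep, summing to 68.1 with all 10 at least 2-fold below MF, and for 10 of 10 on PH, summing to 58.3. On iHep the hepatocyte markers summed to 2.53, against 0.348 on MF. The transcription factor Hnf4a, at a level of 1.04 on iHep and -5.62 on MF, made most of that difference, whereas albumin (Alb) was at -4.75 and -5.2 and Apoa1 was not above background on iHep, so the hepatocyte markers of the cells labelled hepatocyte-like were far below those of PH. Other cells also left marks. Macrophage markers summed to 81.6 on MF, 0.925 on iHep and 93.4 on PH, with C1qa, C1qc and Lyz2 not above background on iHep. T and B lymphocyte markers summed to 2.19, 4.36 and 63.8 on MF, iHep and PH, erythroid markers to 0.275, 0.483 and 19.0, and endothelial markers to 0.741, 0.687 and 64.1.

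Replication genes were highest in iHep and lowest in PH. In iHep over MF 27 of the 44 members were at least 2-fold higher, where 19.8% of the 17165 genes compared were, and 0 were at least 2-fold lower, where 23.5% were. Either way that is 27 members, where 43.4% of genes passed. The members' median log2 difference was 1.20, and that of all genes compared was 0.00. In iHep over PH, arrays of 1 scan, 33 members were higher (23.2% of 17996 genes) and 4 were lower (36% of genes), with a median of 2.14 against -0.30 for all genes; 59.2% of genes passed either way. In PH over MF 19 members were lower (25.4% of 17779 genes) and 6 were higher (30.9% of genes), with a median of -0.95 against 0.04, and 56.3% of genes passed either way. Of those lower, Cdt1, Pola2 and Mcm8 lay at the threshold, at -1, -1 and -1.01. Scaling by the median of commonly detected probes left 16 lower (24.8% of genes), and quantile normalization gave 25 (31% of genes). The share of all genes higher against lower depends on the scaling: under normexp background correction it was 11.7% against 30.9% in iHep over MF and 17.9% against 28.3% in PH over MF, and under quantile normalization 31.1% against 25.6% in iHep over PH. These 3 comparisons share arrays and are not independent. Of the 44 members 31, or 70.5%, had their highest level on iHep, the next on MF and the lowest on PH, an order held by 21.1% of the 13993 genes above background on all 3 arrays. Orc4, Gins2, Gins3, Rfc2 and Rrm1 ran from MF over iHep to PH, as 19.1% of genes did. Mcm10 and Tyms were highest in PH and lowest in MF (17.9% of genes), as were Rfc4 by the brighter of its 2 probes only and Cdc45 in this scaling but not under normexp, where iHep was below MF by a log2 difference of -0.63. Lig1 was highest in PH and lowest in iHep (17.3%). Orc3, Rpa1 and Tk1 were highest in iHep and lowest in MF (10.4%).

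**Figure D1:**
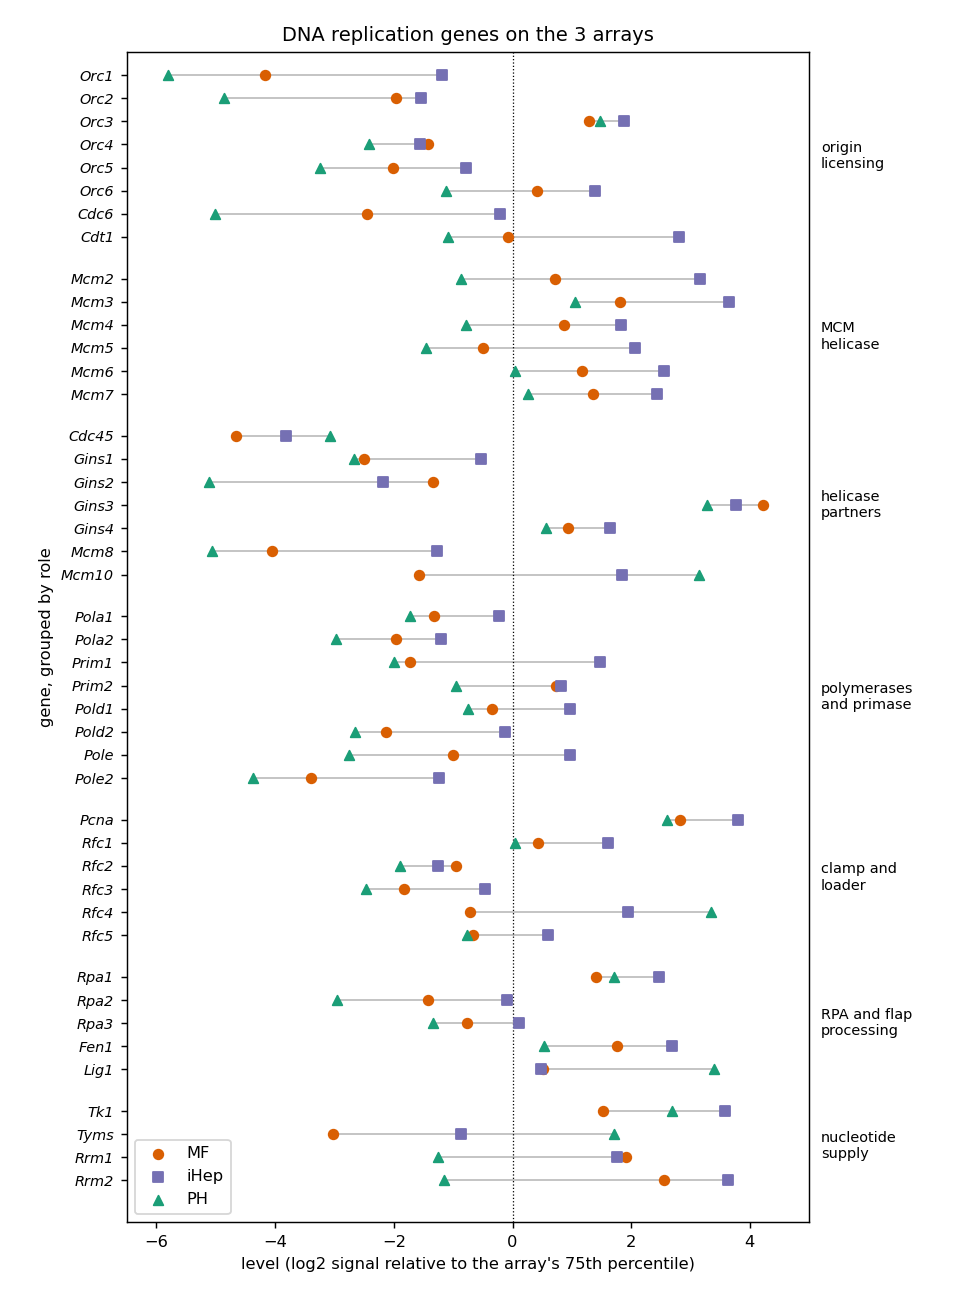
Level of each of the 44 replication genes on the MF (circles), iHep (squares) and PH (triangles) arrays, in log2 signal relative to the array's 75th percentile, with 1 array per group and genes grouped by role. Squares lie to the right in most rows and triangles to the left. The triangles of Mcm10, Lig1 and Tyms, at 3.14, 3.4 and 1.71, are the clearest exceptions. That of Rfc4, at 3.34, is from the brighter of its 2 probes, and the dimmer probe was at -4.40 on PH.

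**Figure D2:**
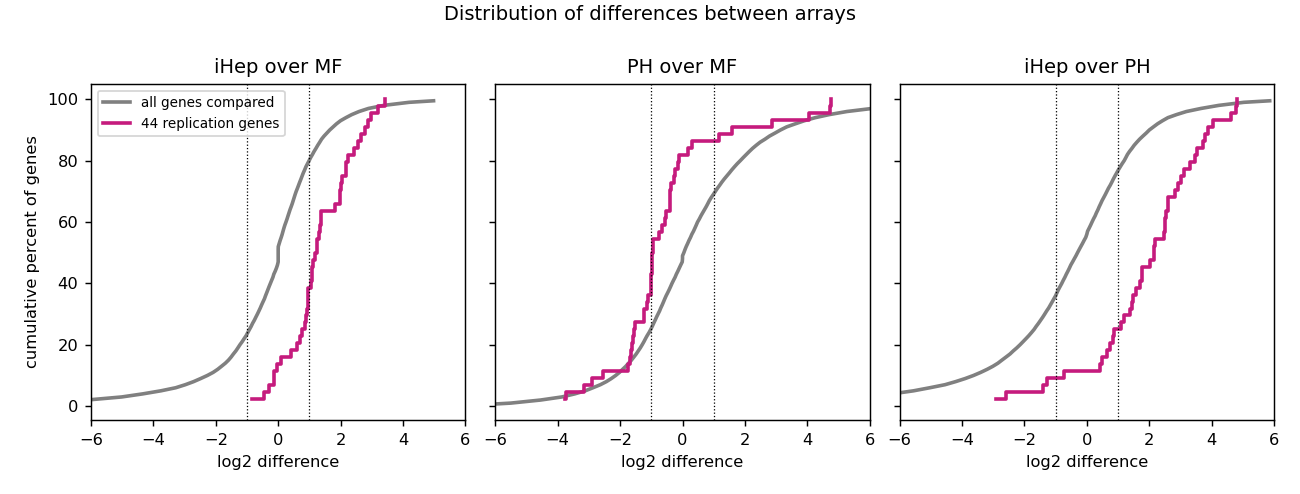
Cumulative percent of genes against log2 difference for the 44 replication genes (coloured steps) and all genes compared (grey), in 3 panels; dotted lines mark 2-fold. The members' curve is shifted to the right of all genes in iHep over MF and iHep over PH, with medians of 1.20 and 2.14, and to the left in PH over MF, with a median of -0.95.

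Promoter sequences were not used in picking the members. Many of these genes were already known to be transcribed by E2F factors, as given above, so the share with an E2F motif is not independent of the choice. RefSeq's promoter table (build GRCm38.p6; bases 250 before to 50 after the start) holds 37 of the 44; Mcm4, Gins1, Gins2, Gins4, Prim2, Pole and Rfc2 are without an entry. The E2F motif was searched on both strands as TTTCCCGC, TTTCGCGC, TTTGCCGC or TTTGGCGC, and matches on opposite strands may overlap. It was found for 15 of 37 members, or 40.5%, against 2.6% of the 27025 genes in the table and 4.32% of the 11159 of them above background on all 3 arrays. The CCAAT box, searched as CCAAT, was found for 24 members (64.9%, against 41.1% of genes), and the CHR element of late cell cycle genes, searched as TTTGAA or TTCGAA, for 7 (18.9% against 21.7%). A match is a run of letters and not a shown binding site.

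The following sequences show the match in members that stood among the largest or typical differences, as the 180 bases before the start, 5′ to 3′ on the gene's strand, with E2F motif letters in capitals; they were chosen after the values were seen.
Orc1, chr4:108579274-108579453, + strand: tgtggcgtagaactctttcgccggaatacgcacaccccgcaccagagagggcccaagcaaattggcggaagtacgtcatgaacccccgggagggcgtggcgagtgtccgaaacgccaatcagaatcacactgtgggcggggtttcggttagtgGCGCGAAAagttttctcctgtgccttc
Cdc6, chr11:98907971-98908150, + strand: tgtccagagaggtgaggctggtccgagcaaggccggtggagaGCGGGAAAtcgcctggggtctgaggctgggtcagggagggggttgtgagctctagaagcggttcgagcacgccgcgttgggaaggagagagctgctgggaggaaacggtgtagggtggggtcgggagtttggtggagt
Mcm5, chr8:75109329-75109508, + strand: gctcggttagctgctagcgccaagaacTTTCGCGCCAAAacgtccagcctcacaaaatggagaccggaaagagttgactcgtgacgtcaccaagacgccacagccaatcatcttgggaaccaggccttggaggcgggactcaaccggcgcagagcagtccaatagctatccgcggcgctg
Mcm6, chr1:128359706-128359885, - strand: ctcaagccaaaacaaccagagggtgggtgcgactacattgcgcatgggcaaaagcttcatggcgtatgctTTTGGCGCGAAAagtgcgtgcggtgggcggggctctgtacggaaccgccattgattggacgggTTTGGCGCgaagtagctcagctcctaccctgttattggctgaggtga
Pola1, chrX:93632156-93632335, - strand: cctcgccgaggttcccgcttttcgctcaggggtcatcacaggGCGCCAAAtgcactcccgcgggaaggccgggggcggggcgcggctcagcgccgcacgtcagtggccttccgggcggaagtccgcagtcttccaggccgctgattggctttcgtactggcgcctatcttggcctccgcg
Rfc3, chr5:151651209-151651388, - strand: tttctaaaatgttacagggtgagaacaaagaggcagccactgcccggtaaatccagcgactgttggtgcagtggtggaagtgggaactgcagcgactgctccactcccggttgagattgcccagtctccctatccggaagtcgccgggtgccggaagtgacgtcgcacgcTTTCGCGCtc
Orc1 has its match close to the start, Cdc6 and Pola1 have one farther upstream, Mcm5 has overlapping matches, Mcm6 has such a pair and a further match nearer the start, and Rfc3 has one just before the start. Tyms, whose level was highest in PH, has no match in its window and is shown beside them. Lig1, also highest in PH, holds a match, as does Gins3, which was highest in MF. Mcm2, Prim1 and Rrm2, all highest in iHep, are among the 22 members with an entry but no match.
Tyms, chr5:30073626-30073805, - strand: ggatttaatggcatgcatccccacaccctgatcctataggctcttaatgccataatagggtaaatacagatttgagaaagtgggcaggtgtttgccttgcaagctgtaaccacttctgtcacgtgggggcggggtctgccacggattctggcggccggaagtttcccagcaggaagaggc
Members with a match had a median log2 difference of 1.38 in iHep over MF (15 genes, from -0.45 to 2.98), and those with an entry but no match 1.12 (22 genes, from -0.15 to 3.43). In iHep over PH the medians were 2.51 and 1.66. In PH over MF they were -0.97 and -0.54. There 1 of the 15 genes with a match was higher and 6 were lower, against 5 and 9 of the 22 without. Of all genes compared 30.9% were higher and 25.4% lower. The ranges of both sets overlap, and Mcm10, with the largest difference in iHep over MF, is without a match.

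**Figure D3:**
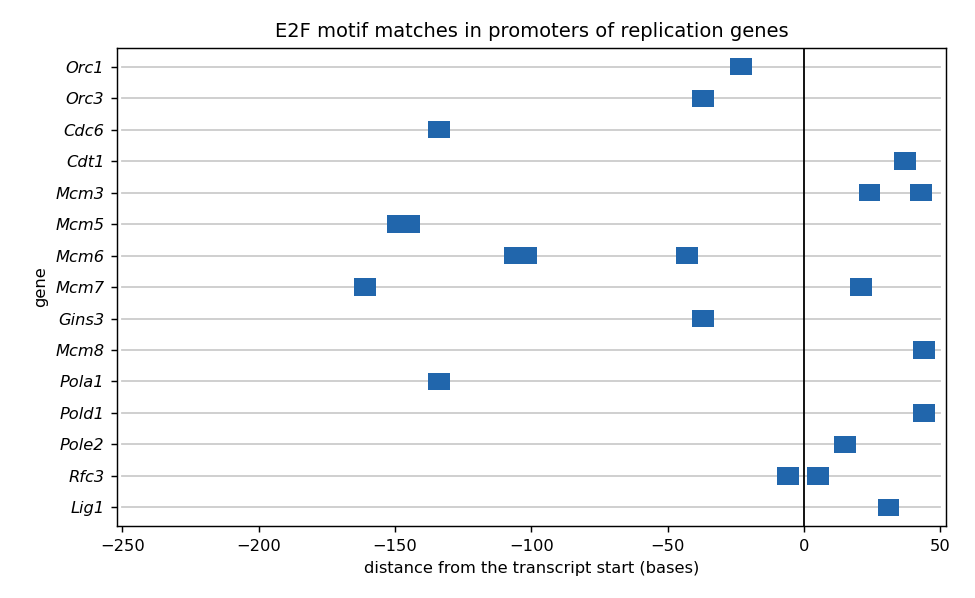
Position of each E2F motif match (bars, drawn to scale) from 250 bases before to 50 bases after the transcript start for the 15 replication genes with a match; the x axis is distance in bases. Matches lie on both sides of the start, with those of Cdt1, Mcm3, Mcm8, Pold1, Pole2 and Lig1 all after it; Lig1 and Mcm7 have several starts in the table, and the match belongs to 1 of them.

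In iHep over MF the origin recognition and licensing genes separated into a strongly different and a less different part. Cdt1, which brings the helicase to origins, was at -0.08 in MF, 2.80 in iHep and -1.08 in PH, so that iHep was 7.35-fold above MF and 14.7-fold above PH. Cdc6, the ATPase that works with it, was at -2.45, -0.21 and -5.01, or 4.71-fold above MF and 27.8-fold above PH. Orc1, the origin recognition subunit that is made and destroyed each cycle, was at -4.17, -1.19 and -5.81, or 7.89-fold and 24.5-fold above. These 3 genes control when origins can be loaded, and all stood lowest in PH. The standing subunits of the complex differed less between the fibroblast cultures. Orc2 was at -1.97 in MF and -1.54 in iHep, but at -4.86 in PH, 7.44-fold below MF. Orc5 was at -2.01, -0.79 and -3.25, and Orc6 at 0.42, 1.39 and -1.12. Orc3 (1.29, 1.88 and 1.47) and Orc4 (-1.43, -1.56 and -2.41) stayed within 2-fold in all 3 comparisons. Under quantile normalization Orc4 passed it, with log2 differences of -1.35 in PH over MF and 1.34 in iHep over PH. Under normexp background correction Orc1 was 1.61 on the log2 scale above MF in place of 2.98, and Cdc6 1.62 in place of 2.24. In iHep over PH Orc1 went from 4.61 to 3.19 and Cdc6 from 4.8 to 3.83 under normexp. Quantile normalization gave 5.49 and 5.59 there.

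The 6 subunits of the MCM ring all had their highest level in iHep and their lowest in PH. Mcm2 gave a spot signal of 898 in MF, 33430 in iHep and 1138 in PH, which are levels of 0.72, 3.16 and -0.87. Mcm5 was at -0.49, 2.07 and -1.46, and Mcm3 at 1.81, 3.64 and 1.05. For these 3 subunits iHep was 5.40-fold, 5.89-fold and 3.56-fold above MF. Mcm6 was at 1.17, 2.56 and 0.04, Mcm7 at 1.36, 2.44 and 0.26, and Mcm4 at 0.86, 1.82 and -0.79. In these iHep stood 2.61-fold, 2.11-fold and 1.94-fold above MF, so that the subunits of the ring differed in size though not in direction. All 6 passed 2-fold upward in iHep over PH (23.2% of all genes did), from 4.53-fold for Mcm7 to 16.3-fold for Mcm2. All were lower in PH than MF, 4 of them by at least 2-fold (25.4% of all genes).

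Proteins that join or accompany the ring were uneven, with log2 differences in iHep over MF from -0.84 for Gins2 to 3.43 for Mcm10. Gins1 was at -2.51 in MF, -0.53 in iHep and -2.67 in PH, 3.96-fold higher in iHep than MF. Gins4 was at 0.93, 1.64 and 0.56, and Gins3 at 4.22, 3.76 and 3.28, both within 2-fold between iHep and MF. Gins2, like Gins3, was lower in iHep than MF, though within 2-fold, at -1.34 in MF, -2.19 in iHep and -5.12 in PH. Its PH level was 13.7-fold below MF and 7.62-fold below iHep. Cdc45, the partner of GINS in the helicase, was dim throughout, at -4.66, -3.82 and -3.07, with a spot signal of 21.5 in MF. Its log2 differences of 0.85 in iHep over MF and 1.59 in PH over MF were -0.63 and 0.11 under normexp background correction, and iHep over PH turned from -0.74 to 0.09 under quantile normalization. Mcm8, a helicase of recombination repair, was at -4.06, -1.28 and -5.07, 6.86-fold above MF in iHep. Under normexp its log2 difference was 1.49 in place of 2.78. Mcm10, which helps start the helicase, was at -1.58 in MF, 1.85 in iHep and 3.14 in PH. It was the member with the largest difference in iHep over MF, at 10.8-fold, yet PH was higher still, 26.4-fold above MF.

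All 8 polymerase and primase genes passed 2-fold upward in iHep over PH, and 6 did so in iHep over MF. Of all genes compared 23.2% and 19.8% did. Prim1, the catalytic subunit of primase, was at -1.72 in MF, 1.47 in iHep and -2.00 in PH, 9.1-fold above MF. Prim2, its regulatory partner, was at 0.73, 0.81 and -0.95, 1.06-fold above MF. Prim1 and Prim2 thus had very different differences in iHep over MF, of 3.19 and 0.08 on the log2 scale. Pole, the catalytic subunit of polymerase epsilon, was at -1, 0.97 and -2.76, and Pole2, its second subunit, at -3.4, -1.24 and -4.37. In iHep over MF these were 3.93-fold and 4.46-fold, though the log2 difference of Pole2 went from 2.16 to 1.25 under normexp. Pold1, the catalytic subunit of polymerase delta, was at -0.35, 0.97 and -0.75, and its accessory subunit Pold2 at -2.14, -0.12 and -2.66. Pola1 (-1.33, -0.23 and -1.72) and Pola2 (-1.97, -1.21 and -2.97), of polymerase alpha, differed least apart from Prim2, at 2.14-fold and 1.69-fold. In PH over MF all 8 differences were below 0, from -0.28 for Prim1 to -1.75 for Pole. That of Pole is by its brighter probe, and its dimmer probe gave 0.14. Of the 8 genes 3 were at least 2-fold lower, with Pola2 at the threshold, where 25.4% of all genes were.

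The sliding clamp and its loader had smaller differences between PH and MF. Pcna, the clamp, was at 2.83 in MF, 3.8 in iHep and 2.60 in PH, which is 1.95-fold for iHep over MF and 1.18-fold for MF over PH. Rfc1, the large loader subunit, was at 0.43, 1.61 and 0.04, Rfc3 at -1.82, -0.46 and -2.47, and Rfc5 at -0.66, 0.60 and -0.76. Those 3 were between 2.26-fold and 2.57-fold higher in iHep than MF. Rfc2 was at -0.96, -1.25 and -1.89, within 2-fold in all 3 comparisons, but its log2 difference in PH over MF was -1.19 under quantile normalization. Rfc4 was read by 2 probes that contradict each other. The brighter was at -0.71, 1.95 and 3.34, highest in PH, and the dimmer at -2.65, -1.05 and -4.40, lowest in PH. Both put iHep above MF, by log2 differences of 2.66 and 1.60, but PH over MF was 4.05 by the brighter and -1.75 by the dimmer, so no direction is given for Rfc4 in PH.

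Single-strand binding and flap processing genes came close to the threshold. Rpa1, Rpa2 and Rpa3 code for the trimer that coats unwound DNA. Rpa2 was at -1.43 in MF, -0.10 in iHep and -2.95 in PH, Rpa1 at 1.41, 2.46 and 1.71, and Rpa3 at -0.77, 0.11 and -1.34. In iHep over MF they were 2.51-fold, 2.08-fold and 1.85-fold higher. Fen1, the flap nuclease, was at 1.76, 2.68 and 0.53, 1.89-fold above MF. Members just under the 2-fold threshold in iHep over MF were Fen1, Pcna, Mcm4 and Orc6, with log2 differences of 0.92 to 0.97, and those just over it Rpa1, Mcm7, Rrm2 and Pola1, at 1.05 to 1.1, gaps close to the spot SD. Lig1, the ligase that seals lagging strand fragments, did not share the pattern, at 0.52 in MF, 0.48 in iHep and 3.4 in PH. It was 7.33-fold higher in PH than MF and 1.03-fold lower in iHep than MF.

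Of the 4 nucleotide supply genes, Rrm1 and Rrm2 were lower and Tyms and Tk1 higher in PH than MF. Rrm2, the subunit of ribonucleotide reductase that limits the enzyme in S phase, was at 2.56 in MF, 3.63 in iHep and -1.16 in PH. PH was 13.2-fold below MF and 27.7-fold below iHep. Rrm1, the large subunit, was at 1.91, 1.76 and -1.25, equal in MF and iHep to within 1.11-fold and 8.93-fold lower in PH than MF. Tyms, thymidylate synthase, was at -3.03, -0.86 and 1.71, 4.50-fold higher in iHep than MF and 26.8-fold higher in PH than MF. Its log2 difference in iHep over MF went from 2.17 to 1.46 under normexp. Tk1, the thymidine kinase of dividing cells, was at 1.53, 3.58 and 2.69, 4.13-fold higher in iHep and 2.24-fold higher in PH than MF.

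The 6 members past 2-fold upward in PH over MF were therefore Mcm10, Rfc4 by its brighter probe, Tyms, Lig1, Cdc45 and Tk1. Apart from Rfc4 each was read by 1 probe, so no second probe bears on them. Mcm10, Lig1 and Tyms kept log2 differences in PH over MF of at least 4.38, 2.67 and 3.99 under normexp, quantile normalization and the authors' deposited table. The lymphocyte, erythroid and endothelial marker sums given above were also higher on PH than on MF, by 63.8 against 2.19, 19.0 against 0.275 and 64.1 against 0.741, and their part in these levels was not tested. Macrophage markers summed to 81.6 on MF and 93.4 on PH but 0.925 on iHep, and their part in the MF levels was likewise not tested.

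**Figure D4:**
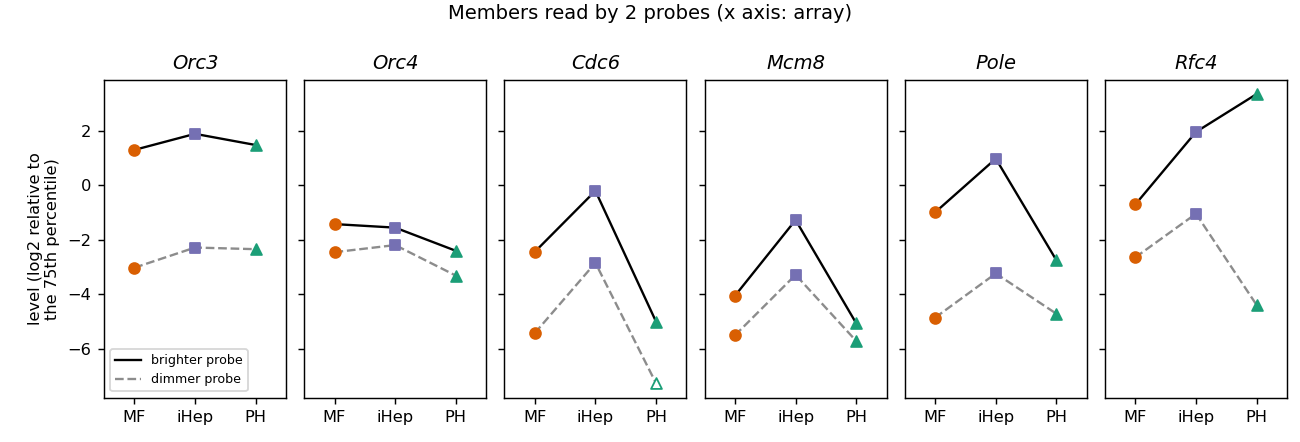
Levels of the 6 replication genes read by 2 probes on the MF, iHep and PH arrays (x axis), in log2 relative to the 75th percentile; solid lines join the brighter probe's values and dashed lines the dimmer's, and the open symbol is a reading not well above background. Lines of Cdc6, Mcm8 and Pole peak at iHep for both probes, whereas the Rfc4 lines part at PH, at 3.34 and -4.40.

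Where a member had a second probe, it mostly repeated the first. For Cdc6 the log2 difference in iHep over MF was 2.24 by the brighter and 2.58 by the dimmer probe, for Mcm8 2.78 and 2.22, and for Pole 1.97 and 1.62. Orc3 gave 0.59 and 0.74, and Orc4 -0.13 and 0.26. Thus 5 of the 6 genes with a second probe had the same sign in iHep over MF, and Orc4, close to 0, did not. In PH over MF Pole gave -1.75 and 0.14, so its lower level in PH rests on the brighter probe, and Mcm8 gave -1.01 and -0.21.

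Other genes of the pathway were read from 6 lists, to be set beside the 19.8% of all genes higher and 23.5% lower in iHep over MF and the 23.2% and 36% in iHep over PH. Of 20 regulators of S-phase entry, 10 were higher past 2-fold in iHep over MF and 1 was lower, with a median log2 difference of 1.07; 17 were higher in iHep than PH and 0 were lower. Cyclin E2 (Ccne2), which opens S phase, was 25.6-fold higher in iHep than MF, E2f7, a repressive member of the E2F family, 9.79-fold and Ticrr, which recruits Cdc45, 7.17-fold. Ccne2 was dim on MF, at -5.34, where the lowest level of a probe above background was -6.3. The lowest of this list were Rbl2 and Rb1, proteins that bind E2F factors, at 2-fold and 1.13-fold lower, and E2f3, an activating E2F, at 1.11-fold lower. Ticrr had the largest difference of this list in iHep over PH, 68.6-fold. Its PH level was dim, at -5.39, where the lowest level of a probe above background was -6.89. Among 22 other fork proteins 12 were higher in iHep than MF and 1 was lower. The helicase Recql4 was 13.2-fold and the nuclease Exo1 9.05-fold higher, while Pold4, the smallest subunit of polymerase delta, was 3.00-fold lower. Clspn, which couples the fork to checkpoint signalling, was 43.8-fold higher in iHep than PH, over a dim PH level of -6.02.

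Among chromatin copying genes 7 of 10 were higher in iHep than MF, 8 of 10 higher in iHep than PH and 7 of 10 lower in PH than MF. Uhrf1, which restores DNA methylation behind the fork, was 4.30-fold higher in iHep than MF and 37.0-fold higher than in PH, and the remodeller Hells 6.33-fold and 49.5-fold. Hells was dim on PH, at -5.57. Of other nucleotide synthesis genes 13 of 17 were higher in iHep than MF and 1 lower, but in PH over MF 5 were higher and 3 lower, against 30.9% and 25.4% of all genes. Shmt1, which makes the folate that Tyms consumes, was 25.3-fold higher in PH than MF, beside the 26.8-fold of Tyms. Tk2, the mitochondrial thymidine kinase, was 3.77-fold lower in iHep than MF, against the 4.13-fold higher level of Tk1.

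In iHep over MF the replication genes had a median of 1.2. Repair and translesion polymerases lay well below that median, whereas mitochondrial DNA replication genes came close to it. Of 11 repair and translesion polymerase genes 2 were higher in iHep than MF and 2 were lower, with a median of 0.35, close to the 19.8% and 23.5% of all genes. Polq, of microhomology repair, was 7.95-fold higher and the translesion polymerase Polk 3.03-fold lower. Of 9 mitochondrial DNA replication genes 5 were higher past 2-fold in iHep over MF and 0 were lower, with a median of 1.01. In PH over MF 2 were higher and 0 lower, against 30.9% and 25.4% of all genes. Mgme1, a nuclease of mitochondrial DNA, had the largest difference of this list in iHep over MF, 6.97-fold.

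**Figure D5:**
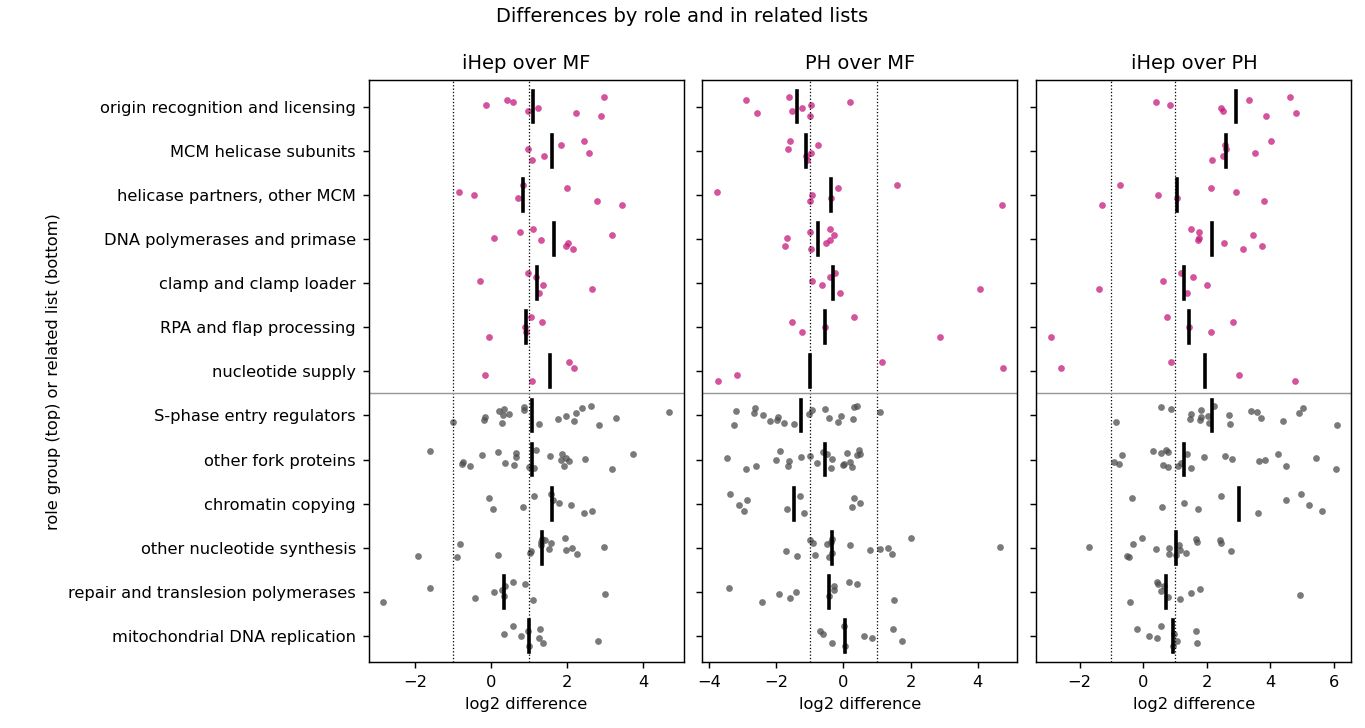
Log2 difference of each gene (points) and the median (bars) by role group of the 44 replication genes (coloured, above the line) and in 6 related lists (grey, below it), in 1 panel per comparison; dotted lines mark 2-fold. In iHep over MF the role medians lie between 0.85 and 1.65, while repair and translesion polymerases have a median of 0.35.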

How the data were processed

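The deposited spot intensity values are linear output of Agilent Feature Extraction, version 11.0.1.1 per the file headers (the submitters' processing notes name 9.1), with its own background correction per array; the design was annotated on mm9. The authors' deposited value table holds log2 values of 26049 probes; it correlated with the scanner levels at 0.9943 to 0.9982, its columns have medians of 7.01 to 7.07, and its normalization stays unknown. The labels' extraction text describes a blood RNA kit with globin removal.

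Levels were log2 processed intensity minus the array's 75th percentile, over non-control spots not marked as outliers (190 to 383 of 43020 left out per array; 0 saturated). Replicate spots were averaged; a probe was above background when at least 50% of its spots were. Probes were named by unversioned accession through RefSeq (GRCm38.p6, for names): 27234 of 39429 (69.1%) had 1 symbol and 12195 none, so further probes of a member may be unnamed. A gene took its probe of highest mean level. Members and lists were chosen with earlier results of these data known; all 44 members are named, and of each related list at most the 3 highest and 3 lowest. A gene above background on 1 array of a pair entered at its bound; no member needed one, and the planned bound alternative is thus the setting used. Differences are of 1 array against 1, described by counts at 2-fold and medians, with no test; the number of arrays limits the precision. The scripts recovered known differences in simulated data. There all arrays had the same starting levels and every probe counted as above background, so the handling of dim readings was not exercised. Alternatives were normexp background correction (limma 3.58.1, R 4.3.3, offset 50; on median signals), quantile normalization, scaling by the median of commonly detected probes, the deposited table, other probe rules, other filters on dim probes, and thresholds of 1.5-fold and 4-fold. Reading dim sides as measured was added after seeing the data. Python 3.11.15 was used otherwise. The values of 1 gene of the related lists are not reported here.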

Additional observations from a re-analysis of the deposited data

How the results depend on the processing

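The members' median in iHep over MF was 1.07 under normexp and in iHep over PH 1.90 under normexp, with 2.38 from quantile normalization and 2.53 from the table the authors deposited; in PH over MF it was -1.14 under quantile normalization and -1.17 in the deposited table, which holds 38 of the 44 members. The median of all genes moved too, in iHep over MF from 0.00 to -0.21 under normexp, in PH over MF from 0.04 to -0.12 under quantile normalization and in iHep over PH from -0.30 to 0.20 under quantile normalization. At a 4-fold threshold 13 of the 44 members were higher in iHep than MF, where 6.99% of all genes were. At that threshold 5 were lower in PH than MF (11.2% of genes) and 2 lower in iHep than PH (21.4%). Those 5 of 44 are close to the share of all genes. At 1.5-fold 1 was lower in iHep than MF (31.8% of genes). All other counts of members at 2-fold stayed within 1.5 times and the members' medians kept their sign under the alternatives run. Of the 27 members higher in iHep than MF, 24 remained under normexp (Orc5, Pola1 and Rfc3 did not) and 27 under quantile normalization. Members past 2-fold that turned sign were Pole in PH over MF (0.14 with the dimmest probe) and Rfc4, at -1.75 in PH over MF and 3.35 in iHep over PH with the dimmest probe and 0.98 in iHep over PH with the mean of its probes; their probes differ, as given above. Within 2-fold, Cdc45 turned in iHep over MF (-0.63 under normexp) and iHep over PH (0.09 under quantile normalization), Orc4 in iHep over MF (0.39 in the deposited table) and Rrm1 in iHep over MF (0.06 under normexp). The dim members Orc1, Mcm8 and Cdc45, with MF signals of 30.2, 32.7 and 21.5, moved under normexp as given above, and Gins1 in iHep over MF went from 1.99 to 1.36; the cause was not tested. No paired analysis was possible because each group has 1 array.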

Other observations

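The E2F motif was also read in genes outside the replication set. Among genes above background on all 3 arrays with a promoter in the RefSeq table, 467 non-members held a match and 10655 did not. In iHep over MF 23.8% of those with a match were at least 2-fold higher and 17.6% lower, against 19.5% and 22.5% of those without. In iHep over PH 34.7% of those with a match were higher and 18.4% lower, against 25.8% and 28.8%. Their median log2 differences in iHep over PH were 0.48 and 0.00. PH over MF gave 17.6% higher and 30.4% lower with a match, against 26.1% and 27.3% without. The medians there were -0.36 and -0.15. No test was made.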
